A study of Mus musculus with 6 samples.

Results

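The replication-dependent histone genes make the bulk of the histones that package newly copied DNA. They were taken here as the rows of a mouse gene count table named H2ac, H2bc, H3c or H4c with a number, or H1f1 to H1f5, that held 20 or more counts over 6 libraries. They were thus chosen by name and by their summed count, and 57 of 67 such rows, among 50763 rows of the table, were kept. That sum is therefore only a description: H3c13 with 14, H2ac20 with 16 and H2bc13 with 19 counts lay just outside, and H4c6 with 23, H2bc14 with 26 and H4c14 with 27 just inside. The 57 genes comprised 5 genes of the linker histone H1, 13 of H2A, 15 of H2B, 11 of H3 and 13 of H4. Of these, 48 lay on chromosome 13, 7 on chromosome 3, and 1 each on chromosomes 6 and 11.

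RNA came from mouse embryonic fibroblasts, cells grown from dissociated embryos, taken at E13.5 and kept briefly in culture. Both genotypes were on a C57BL/6 background. WT cells carried unedited Sod2, and K68R cells carried a CRISPR knock-in in the gene of SOD2, the manganese superoxide dismutase of mitochondria, in which an arginine stands for a lysine that can be acetylated. Each genotype had 3 libraries, which the labels call biological replicates. Nothing says whether they came from separate embryos or cultures, so the p-values speak only of the spread among these samples, which could be technical. The sources used here do not give the number of embryos or founders behind a genotype.

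Histone mRNAs of this kind are made mainly while DNA is replicated, from genes that lie in clusters, mostly have no introns and often stand as divergent pairs that share a promoter. Their messages usually end in a short stem-loop in place of a poly(A) tail. The stem-loop binding protein SLBP and the U7 small nuclear ribonucleoprotein direct the cut that forms this end, and the messages are degraded when replication stops. Some of the genes also give polyadenylated transcripts, chiefly in cells that leave the cycle. The libraries were made from poly(A)-selected RNA, so the values are those of the captured part of the messages, and a change of total message and a change of its polyadenylated share cannot be told apart.

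The stem-loop is shown for 6 of the genes because its letters differed between H4 and the other classes. The 16 bases in capitals match a search for the histone stem-loop, read on the transcript strand only, with 5 positions of the stem and loop left free for any base. The fixed letters are a GG at the start, the loop side CTTTT after 2 free bases, then AG and G with 1 free base before each, and a last C after 1 more. The 5 bases on each side are in lower case. The sequences are DNA letters of the GENCODE M21 transcripts of build GRCm38, written 5′ to 3′.
H1f2: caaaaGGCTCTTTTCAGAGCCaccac
H2ac11: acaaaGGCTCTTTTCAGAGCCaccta
H3c2: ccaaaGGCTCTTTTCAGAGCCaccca
H3c3: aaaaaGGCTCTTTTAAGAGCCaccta
H4c8: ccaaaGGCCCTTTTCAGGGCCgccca
H4c9: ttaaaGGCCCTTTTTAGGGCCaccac
Of the 57 genes, 55 matched a transcript, and 36 of those 55 held the pattern in their longest transcript, the only one searched. Over all 55450 genes with a transcript, where a match in any transcript counted, 76 held it (0.137%). The form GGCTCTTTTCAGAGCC stood in 23 genes (3 of H1, 9 of H2A, 6 of H2B and 5 of H3). The form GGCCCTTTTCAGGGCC stood in 6 genes, all of H4, and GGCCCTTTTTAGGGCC in 2, both of H4, H4c9 and H4c14. The form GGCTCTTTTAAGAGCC stood in 5 genes, 2 of H2B and 3 of H3. In 19 transcripts without the pattern, these letters were absent from the model as annotated.

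Sod2 itself (chromosome 17, 13226726 to 13237006, mm39) read 48.9, 45.6 and 47.2 CPM in K68R against 71.8, 68.9 and 69.2 CPM in WT. All 3 K68R values lay below all 3 WT values, with a log2 fold change of −0.57 ± 0.04 (SE; edgeR quasi-likelihood test, Benjamini-Hochberg adjusted p = 3.0e-23). It was −0.23 when offsets for exon length and GC content entered the fit, and against a 1.5-fold bound the adjusted p was 0.692. The codon was not read, so the labels were not checked at the edited base. Library totals ran from 26200088 to 40691447 counts, and CPM here are counts scaled by the TMM-normalized library size, on which 3 counts are 0.0728 to 0.116 CPM. The genotypes stood far apart throughout: 13613 of 16730 genes tested (81.4%) were called at an adjusted p under 0.05, 6833 higher and 6780 lower in K68R, with a median log2 fold change of −0.01. Fibroblast markers summed to 19063 to 19114 CPM in K68R and 9101 to 9257 CPM in WT, but went both ways: 6 of 12 were called higher and 5 lower (5 and 7 with length and GC offsets). Chosen after their values were seen, Fn1 was at 7154 against 387 CPM and Col1a1 at 2445 against 165, while Pdgfra was at 65.3 against 363. Skeletal muscle markers were at 191 to 193 and 52.5 to 53.9 CPM, neural and glial markers at 390 to 393 and 47.4 to 52.2, endothelial markers at 96.9 to 98.9 and 25.3 to 27.7, and epithelial markers at 18.4 to 20.5 and 46.0 to 47.6. Macrophage markers were at 169 to 174 and 177 to 179 CPM, and erythroid markers at 0.705 to 0.814 and 0.835 to 1.22. Of these lists, 8 of 8 tested muscle genes were called higher and none lower, and 3 of 6 endothelial genes higher and none lower. Of 7 neural and glial genes 4 were higher and 3 lower, of 12 macrophage genes 4 higher and 4 lower, of 6 epithelial genes all lower, and the 1 erythroid gene tested was not called. In bulk RNA fewer cells of a type and less RNA per cell cannot be told apart, and the part of these cell type markers in the histone values was not tested.

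Summed over the 57 genes, histone transcripts were at 219.8, 217 and 219 CPM in K68R against 137, 124 and 129 CPM in WT. All 3 K68R sums lay above all 3 WT sums, with means of 218 ± 1.47 CPM in K68R against 130.2 ± 6.79 CPM in WT (SD, n = 3), a ratio of 1.68. Behind the sums stood 5673, 6766 and 6744 counts in K68R and 5668, 3878 and 4332 counts in WT. A pair of genes, H1f2 and H2bc4, held 60.5% of all counts of the family, and without them the sums were 80.0 ± 1.58 CPM in K68R against 56.4 ± 6.81 CPM in WT (SD, n = 3), a ratio of 1.42.

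Gene by gene, CPM in K68R lay wholly above WT in 29 of the 57 genes (50.9%) and wholly below in 6 (10.5%), while 22 overlapped. Among all rows with 20 or more counts, 39.1% lay wholly above and 36.5% wholly below. With no low-count filter the edgeR test called 30 of the 57 higher (52.6%) and 5 lower (8.77%), against 35.8% and 36.2% of the 19635 rows with 20 or more counts. The median log2 fold change of the 57 was 0.87 in that fit, beside −0.01 for those rows. The low-count filter of the main fit kept 43 of the 57 genes, and 7 of the 43 passed through K68R libraries alone. Its level was reached in fewer than 3 WT libraries by 21 of the 43, and in fewer than 3 K68R libraries by 7. The following counts therefore describe the tested genes only and depend on that filter. Of the 43, 26 were called higher (60.5%, against 40.8% of all genes tested), 4 lower (9.30%, against 40.5%) and 13 were not called. Their median log2 fold change was 1.18, with a range from −3.88 to 4.49. The plot of fold changes by class shows that the spread within H2A covered nearly this whole range.

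**Figure D1:**
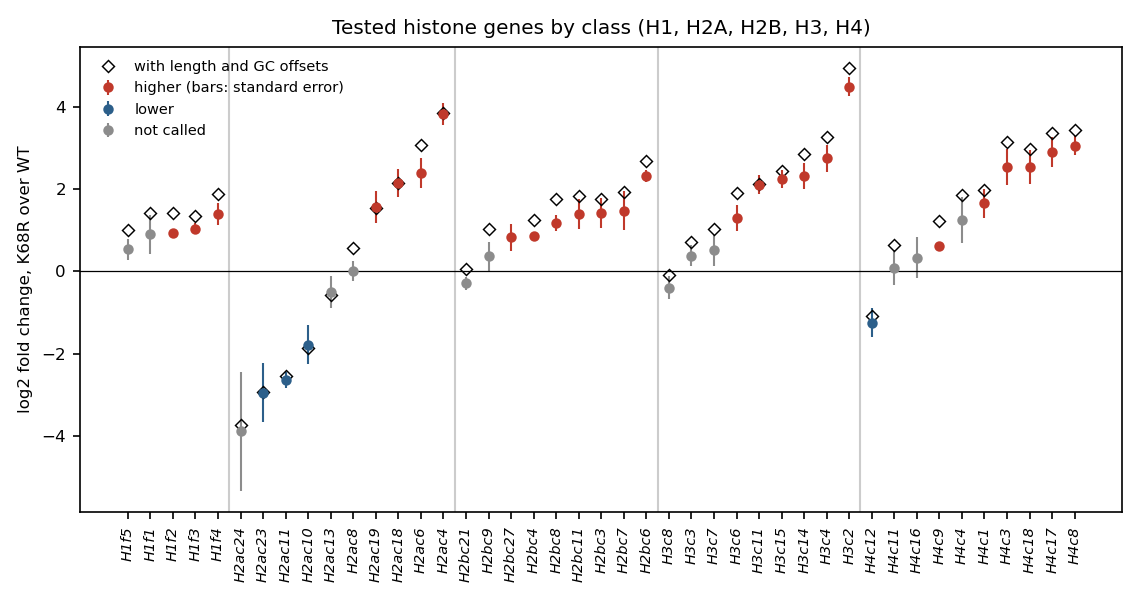
Log2 fold change of K68R over WT for the 43 tested histone genes, ordered within H1, H2A, H2B, H3 and H4 (grey lines part the classes). Filled points with standard error bars are the edgeR fit, coloured by call; open diamonds are the fit with length and GC offsets, which could not be computed for H2bc27 and H4c16, and lie above the filled points for most genes outside H2A.

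Fold changes in these libraries moved with exon length and GC content, and histone genes are short (375 to 2623 exonic bases, median 493). The other 1506 tested genes under 1000 exonic bases went mainly down: 10.2% were called higher and 61.7% lower, with a median log2 fold change of −0.58. Length and GC content were also fitted per library and entered as offsets. In that fit the median over the tested histone genes with a GC value, all but H2bc27 and H4c16, was 1.76, beside −0.06 for all genes. The GC content was that of the longest GENCODE transcript, which for some genes was far longer than the counted exons. H1f3 had 776 exonic bases and a transcript of 7425. The offset values of such genes are therefore less certain, and how far this moved the median was not tested. In that fit 32 histone genes were called higher and 4 lower, beside 34.0% of all genes called higher and 41.8% lower.

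By class, the summed CPM of H1, H2B, H3 and H4 was higher in K68R and that of H2A lower. H1 summed to 84.5 ± 1.5 CPM in K68R against 43.8 ± 1.19 CPM in WT (SD, n = 3). H2B summed to 79.5 ± 1.06 CPM in K68R against 42.3 ± 0.328 CPM in WT (SD, n = 3). In both classes the K68R libraries lay well above the WT libraries, with ratios of 1.93 and 1.88. H3, the class with the largest ratio at 3.41, summed to 17.2 ± 1.78 CPM in K68R against 5.03 ± 0.988 CPM in WT (SD, n = 3). H4 summed to 24.4 ± 0.736 CPM in K68R against 13.03 ± 0.904 CPM in WT (SD, n = 3). The genotypes did not overlap in either, and the ratio for H4 was 1.87. H2A summed to 12.8 ± 0.106 CPM in K68R against 26.1 ± 4.23 CPM in WT (SD, n = 3), 2.04 times higher in WT, also without overlap. No p-value was computed for these sums. Beside the counts of genes called in each class below stand 40.8% of all genes tested called higher and 40.5% lower.

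**Figure D2:**
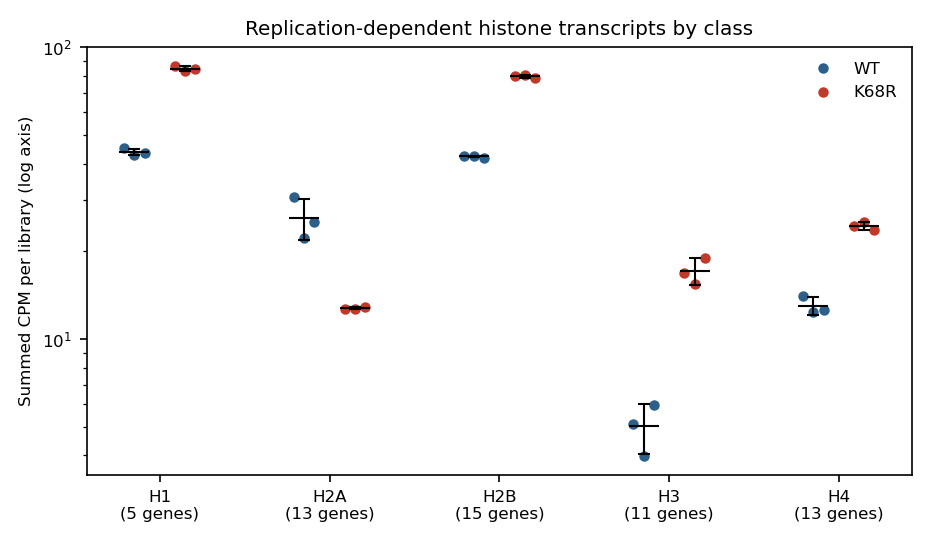
Summed CPM of each histone class (log axis) in each of 3 WT and 3 K68R libraries, with the mean (line) and SD (bars). In H1, H2B, H3 and H4 all K68R points lie above all WT points, and in H2A all lie below.

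The H1 genes encode the linker histones that bind DNA where it enters and leaves the nucleosome. H1f2 was the most abundant gene of the family per kilobase of exon, and read 76.6, 74.7 and 76.4 CPM in K68R against 40.1, 39.3 and 39.3 CPM in WT. The libraries of each genotype lay close together, and the log2 fold change was 0.94 ± 0.04 (SE; edgeR, Benjamini-Hochberg adjusted p = 2.9e-35). H1f3 read 5.85, 4.42 and 5.38 CPM in K68R against 2.72, 2.27 and 2.57 CPM in WT. It was higher in all 3 K68R libraries, by 1.04 ± 0.14 on the log2 scale (edgeR, Benjamini-Hochberg adjusted p = 5.8e-10). H1f4 read 2.21, 1.99 and 1.10 CPM in K68R against 0.922, 0.512 and 0.507 CPM in WT, again without overlap, with a log2 fold change of 1.40 ± 0.26 (edgeR, Benjamini-Hochberg adjusted p = 3.2e-06). H1f5 read 0.969, 1.63 and 1.26 CPM in K68R against 1.09, 0.544 and 1.01 CPM in WT. Its genotypes overlapped, since WT replicate 1 lay above K68R replicate 1, and its log2 fold change of 0.53 ± 0.26 missed the threshold (edgeR, Benjamini-Hochberg adjusted p = 0.0511). Without K68R replicate 1 that p was 0.0205, without WT replicate 1 it was 0.0289, and without WT replicate 3 it was 0.0484. H1f1 was also not called at 0.90, so that 3 of the 5 H1 genes passed and 5 of 5 had a higher mean in K68R. Without WT replicate 1, and with the length and GC offsets, all 5 passed.

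**Figure D3:**
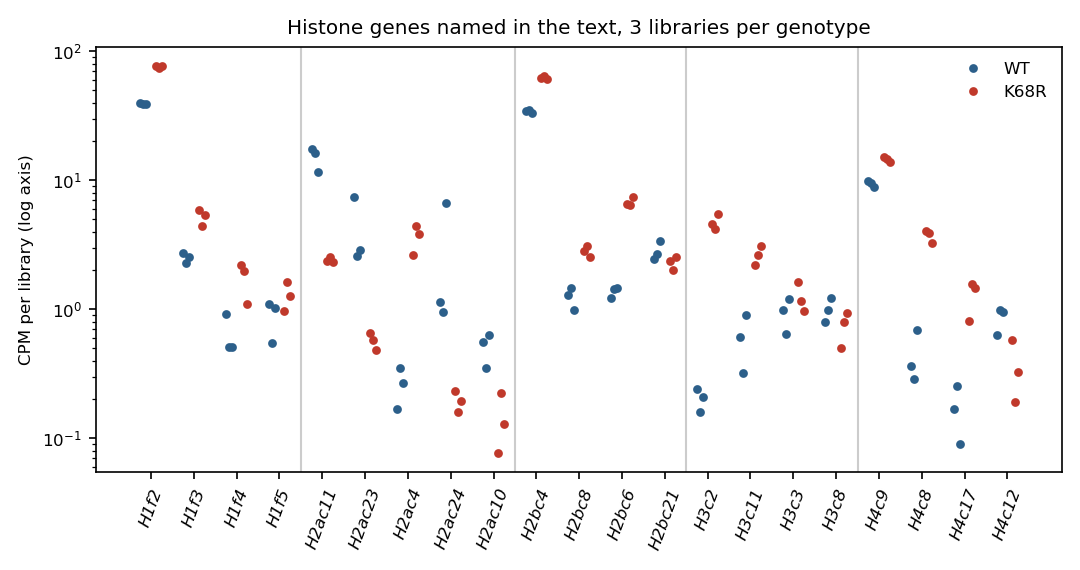
CPM (log axis) of 21 histone genes in each of 3 WT and 3 K68R libraries, in the order H1, H2A, H2B, H3, H4 and by level per kilobase within a class (grey lines part the classes). The H2A genes lie both above and below their WT values, and WT replicate 3 of H2ac24 stands far above the other libraries of that gene.

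H2A, which pairs with H2B on the outside of the nucleosome core, had 3 called genes lower and 4 higher in K68R. H2ac11 was its most abundant gene per kilobase and read 2.36, 2.56 and 2.33 CPM in K68R against 17.6, 16.2 and 11.5 CPM in WT. Every K68R value lay far below every WT value, with a log2 fold change of −2.64 ± 0.20 (edgeR, Benjamini-Hochberg adjusted p = 2.6e-06). In WT it stood at 32.0 CPM per kilobase, below H1f2 alone among the 57 genes, and in K68R at 5.13. H2ac4, in contrast, read 2.63, 4.46 and 3.82 CPM in K68R against 0.170, 0.352 and 0.268 CPM in WT. It had the largest rise of its class, 3.82 ± 0.26 on the log2 scale (edgeR, Benjamini-Hochberg adjusted p = 1.3e-21), and its genotypes did not overlap.

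H2ac23 and H2ac24, which lie in one cluster on chromosome 13, had uneven values among the WT libraries. H2ac23 read 0.659, 0.577 and 0.486 CPM in K68R against 7.45, 2.59 and 2.89 CPM in WT. WT replicate 1 stood well above the other WT libraries, and the log2 fold change was −2.95 ± 0.71 (edgeR, Benjamini-Hochberg adjusted p = 0.0166). That call was lost without K68R replicate 1, 2 or 3 (adjusted p = 0.0557, 0.0633 and 0.0656) and in limma-voom (0.0509). H2ac24 read 0.232, 0.160 and 0.194 CPM in K68R against 1.14, 0.959 and 6.71 CPM in WT. WT replicate 3 alone set most of its WT mean, and the log2 fold change of −3.88 ± 1.45 was not called (edgeR, Benjamini-Hochberg adjusted p = 0.0631). Without WT replicate 3 it was −2.44 with an adjusted p of 9.7e-08, DESeq2 gave an adjusted p of 1.5e-04, and the WT values still lay above the K68R values in every library. H2ac10 read 0.0775, 0.224 and 0.130 CPM in K68R against 0.558, 0.352 and 0.626 CPM in WT. It was lower in all 3 K68R libraries, with a log2 fold change of −1.78 ± 0.47 (edgeR, Benjamini-Hochberg adjusted p = 4.5e-04) and held 2, 7 and 4 counts in K68R. Both H2ac10 and H2ac24 passed the filter through WT libraries alone. With no filter H2ac10 was at −1.82 and called lower, and H2ac24 was at −3.92 and not called.

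In all, 4 of the 10 tested H2A genes were called higher (40.0%), 3 lower (30.0%) and 3 not, beside 40.8% and 40.5% of all genes tested. Their median log2 fold change was −0.25, and that of all 13 without a filter −0.03. The filter was passed through K68R libraries alone by 1 of the 10. Its level was reached in fewer than 3 WT libraries by 4, and in fewer than 3 K68R libraries by 3. The 3 called genes not yet named, H2ac6, H2ac18 and H2ac19, were higher by 2.39, 2.16 and 1.57 on the log2 scale. Without the 3 H2A genes called lower, a choice that by itself raises the ratio of K68R to WT, the class summed to 9.64 ± 0.297 CPM in K68R against 6.13 ± 3.65 CPM in WT (SD, n = 3), where WT replicate 3 (10.2 CPM, with H2ac24 in it) lay above all K68R libraries and the other WT libraries below.

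Spread between the libraries of one genotype was wider for histone genes in WT than in K68R. Pairs of WT libraries differed by a mean chi-square of 5.01 to 9.16 per histone gene, against 1.92 to 2.04 between K68R libraries and 1.88 to 2.32 over all genes within a genotype. Without H2ac11, H2ac23 and H2ac24, chosen after their values were seen, the WT range was 1.95 to 2.74 and the K68R range 2.00 to 2.13.

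Many histone genes are near-identical copies, and read pairs that mapped to several places were not counted. Of the 50-base words of its transcript, H2ac11 shared none with another gene in 21.1%, H2ac23 in 6.50%, H2ac24 in 6.93% and H2ac10 in 6.00%. Of genes called higher, H1f2 had 91.5% such words, H3c2 39.6%, H3c11 12.4% and H4c17 10.2%. Over the 55 genes with a transcript the median was 45.9%, from 0 to 100%. It was 50.3% for the 25 of these called higher, from 0 to 97.8%, and 13.8% for the 4 called lower, from 6.00 to 28.5%. These shares are over the longest GENCODE transcript, which can be longer than the counted exons. For H2ac6 it had 2482 bases, against 487 exonic bases, so the share in the counted part can differ. In H2A the median was 9.88%, the lowest of the classes, and for H2ac18, H2ac19, H3c14 and H2bc18 it was 0. The values of these genes are therefore uncertain, since a read could have been lost or placed on a copy. The 57 genes shared no exonic base with another gene of the table on either strand.

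All H2B genes that were called, 7 of 9 tested, were higher in K68R. H2bc4 held most of the class and read 62.3, 63.9 and 61.3 CPM in K68R against 34.2, 35.2 and 33.3 CPM in WT. Its genotypes did not overlap, and the log2 fold change was 0.87 ± 0.04 (edgeR, Benjamini-Hochberg adjusted p = 1.9e-31). H2bc6 read 6.59, 6.41 and 7.45 CPM in K68R against 1.21, 1.44 and 1.46 CPM in WT. It had the largest rise among tested H2B genes, 2.32 ± 0.15 on the log2 scale (edgeR, Benjamini-Hochberg adjusted p = 1.4e-23). H2bc8 read 2.83, 3.11 and 2.53 CPM in K68R against 1.29, 1.47 and 0.984 CPM in WT, without overlap, and was higher by 1.18 ± 0.19 (edgeR, Benjamini-Hochberg adjusted p = 7.9e-08). H2bc21, on chromosome 3, read 2.36, 2.02 and 2.56 CPM in K68R against 2.47, 2.69 and 3.37 CPM in WT. Here a K68R library lay among the WT values and the log2 fold change of −0.29 ± 0.17 was not called (edgeR, Benjamini-Hochberg adjusted p = 0.0971). With the length and GC offsets it turned to 0.06, and without WT replicate 1 it was −0.40 with an adjusted p of 0.0397. The products of these genes pair with H2A, and 2 of the 9 tested were not called. The filter was passed through K68R libraries alone by 1 of the 9, and its level was reached in fewer than 3 WT libraries by 4. Over all 15 H2B genes without a filter 9 were called higher (60.0%, against 35.8% of rows with 20 or more counts) and none lower, and the median was 0.83. Without H2bc4 the class summed to 17.0 ± 0.431 CPM in K68R against 8.05 ± 0.686 CPM in WT (SD, n = 3), a ratio of 2.11.

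H3 and H4 form the tetramer at the centre of the nucleosome. H3c2 had the largest log2 fold change of the family and read 4.57, 4.17 and 5.48 CPM in K68R against 0.243, 0.160 and 0.209 CPM in WT. The WT libraries held only a few counts each, the K68R libraries were all far above them, and the log2 fold change was 4.49 ± 0.24 (edgeR, Benjamini-Hochberg adjusted p = 2.3e-27). H3c11 read 2.21, 2.63 and 3.08 CPM in K68R against 0.606, 0.320 and 0.895 CPM in WT. It was higher by 2.11 ± 0.24 on the log2 scale with no overlap (edgeR, Benjamini-Hochberg adjusted p = 2.5e-12). H3c3 read 1.63, 1.15 and 0.972 CPM in K68R against 0.994, 0.640 and 1.19 CPM in WT, values that overlapped, and its log2 fold change of 0.38 ± 0.26 was not called (edgeR, Benjamini-Hochberg adjusted p = 0.164). With the offsets it was 0.72 at an adjusted p of 0.00984. H3c8 read 0.504, 0.801 and 0.940 CPM in K68R against 0.800, 0.991 and 1.22 CPM in WT, also overlapping, and its log2 fold change of −0.39 ± 0.28 was not called (edgeR, Benjamini-Hochberg adjusted p = 0.194). Among 9 tested H3 genes 6 were called higher, none lower and 3 not, and the median was 2.11. H3c2 and H3c4 passed the filter through K68R libraries alone, and the median of all 11 H3 genes without a filter was 1.25.

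Among H4 genes, H4c9 was the most abundant per kilobase and read 15.1, 14.6 and 13.9 CPM in K68R against 9.92, 9.50 and 8.92 CPM in WT. Its log2 fold change was 0.62 ± 0.08 without overlap (edgeR, Benjamini-Hochberg adjusted p = 2.7e-11), and against a bound of 1.5-fold the adjusted p was 0.292. H4c8 read 4.07, 3.88 and 3.24 CPM in K68R against 0.364, 0.288 and 0.686 CPM in WT. All K68R values lay above all WT values, by 3.06 ± 0.23 on the log2 scale (edgeR, Benjamini-Hochberg adjusted p = 6.0e-20). H4c17 read 0.814, 1.57 and 1.46 CPM in K68R against 0.170, 0.256 and 0.0895 CPM in WT, near the level of 3 counts in WT, and was higher by 2.90 ± 0.37 (edgeR, Benjamini-Hochberg adjusted p = 9.5e-11). H4c12 went the other way and read 0.581, 0.192 and 0.324 CPM in K68R against 0.631, 0.991 and 0.955 CPM in WT. It was the only gene outside H2A among the 4 called lower, with a log2 fold change of −1.25 ± 0.35 (edgeR, Benjamini-Hochberg adjusted p = 0.00106), and 28.5% of its 50-base words stood in no other gene. Of 10 tested H4 genes 6 were called higher, 1 lower and 3 not, with a median of 1.46, and 3 of the 10 passed the filter through K68R libraries alone. Its level was reached in fewer than 3 WT libraries by 8 of the 10, and in fewer than 3 K68R libraries by 3. Over all 13 H4 genes without a filter 7 were called higher and 2 lower, and the median was 0.58.

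By position (mm39), the genes of chromosome 13 fell into 3 clusters with different sums. The cluster at 23715214 to 23948395 held 28 of the genes, among them H1f2, H2bc4 and H3c2, and summed to 181 ± 0.666 CPM in K68R against 88.1 ± 1.68 CPM in WT (SD, n = 3), a ratio of 2.05. Of its 24 tested genes 16 were called higher and 1, H2ac10, lower. The filter was passed through K68R libraries alone by 4 of the 24, and its level was reached in fewer than 3 WT libraries by 12. Without a filter 18 of the 28 were called higher and 2 lower. The cluster at 21899881 to 22021700 held 15 genes and summed to 9.41 ± 0.174 CPM in K68R against 11.9 ± 4.22 CPM in WT (SD, n = 3). There WT replicate 2, at 7.04 CPM, lay below the K68R libraries and the other WT libraries above them, and of 9 tested genes 3 were called higher and 2 lower. The filter was passed through K68R libraries alone by 2 of the 9, and its level was reached in fewer than 3 WT libraries by 3. Without a filter 5 of the 15 were called higher and 2 lower. The small cluster at 22219292 to 22227828 held 5 genes, with H4c9 and H2ac11 among them, and summed to 18.2 ± 0.784 CPM in K68R against 25.1 ± 3.65 CPM in WT (SD, n = 3). Of its 3 tested genes H2ac11 was lower and 2 were higher. Without a filter 2 of the 5 were called higher and 1 lower.

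**Figure D4:**
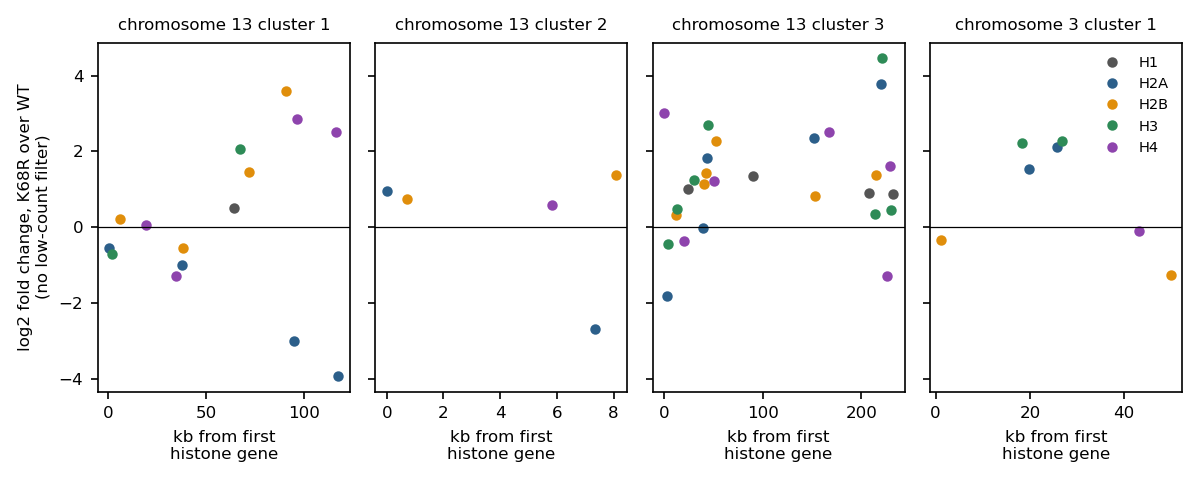
Log2 fold change of K68R over WT without a low-count filter, against distance in kilobases from the first histone gene of each cluster, for the 48 genes of chromosome 13 (clusters numbered in order of position) and the 7 of chromosome 3, coloured by class. The lowest point of each chromosome 13 cluster is an H2A gene, and points above 2 lie in clusters 1 and 3 of chromosome 13 and on chromosome 3.

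On chromosome 3 (96127201 to 96177508) 7 genes summed to 8.69 ± 0.938 CPM in K68R against 4.52 ± 0.557 CPM in WT (SD, n = 3), and 4 of 5 tested were called higher, all but H2bc21. The filter was passed through K68R libraries alone by 1 of the 5, and its level was reached in fewer than 3 WT libraries by 3. Without a filter 4 of the 7 were called higher and none lower. Of the 50-base words of H2ac18, H2ac19 and H3c14, all called higher, 0% stood in no other gene, so their values are uncertain. H2bc27, the lone gene on chromosome 11, was higher by 0.83 ± 0.33 (edgeR, Benjamini-Hochberg adjusted p = 0.0170) and H4c16 on chromosome 6 was not called at 0.33 ± 0.50. All of chromosome 13 summed to 209 ± 1.06 CPM in K68R against 125 ± 6.22 CPM in WT (SD, n = 3), and 21 of 36 tested genes were called higher and 4 lower. The filter was passed through K68R libraries alone by 6 of the 36, and its level was reached in fewer than 3 WT libraries by 16. Beside these counts of tested genes by cluster and chromosome stand 40.8% of all genes tested called higher and 40.5% lower. Beside the counts without a filter stand 35.8% and 36.2% of the rows with 20 or more counts. No test of a difference between chromosomes or clusters was run.

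H2A and H2B genes often stand head to head, and 13 such pairs of rows lay 163 to 280 bases apart, 7 with both genes among the 57 and 3 with both tested. The genes of these pairs were singled out after their values were seen. H2ac11 and H2bc11, 248 bases apart, moved in opposite directions. H2bc11 read 1.12, 0.641 and 0.745 CPM in K68R against 0.388, 0.128 and 0.388 CPM in WT, all K68R libraries above all WT libraries, and was higher by 1.40 ± 0.36 (edgeR, Benjamini-Hochberg adjusted p = 3.6e-04), while H2ac11 was lower. H2ac6 and H2bc4 were both higher. H2bc8 was higher and its partner H2ac8 was not called at 0.01 ± 0.24. H2bc23, the partner of the lower H2ac23, was too low for the main test and read 0.620, 0.224 and 0.357 CPM in K68R against 0.0485, 0 and 0.0298 CPM in WT, all under 3 counts in WT. The difference within a pair was not tested.

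The shared stretch between H2ac11 and H2bc11 is shown for that reason, as the H2ac11 promoter, 250 bases before and 50 after its start, from RefSeq (GRCm38.p6, chr13:22042900-22043199, minus strand). The H3c2 promoter (GRCm38.p6, chr13:23752095-23752394, plus strand) is that of the gene with the largest fold change. Capitals mark the CCAAT motif, the TATA motif (TATAAA) and the octamer motif (ATTTGCAT) or their reverse complements.
H2ac11: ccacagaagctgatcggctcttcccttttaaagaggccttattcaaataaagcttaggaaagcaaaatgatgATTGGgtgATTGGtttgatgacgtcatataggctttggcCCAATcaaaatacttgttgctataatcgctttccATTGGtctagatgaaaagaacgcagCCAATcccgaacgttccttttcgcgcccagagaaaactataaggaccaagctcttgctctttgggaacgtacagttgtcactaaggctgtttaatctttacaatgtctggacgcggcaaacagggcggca
H3c2: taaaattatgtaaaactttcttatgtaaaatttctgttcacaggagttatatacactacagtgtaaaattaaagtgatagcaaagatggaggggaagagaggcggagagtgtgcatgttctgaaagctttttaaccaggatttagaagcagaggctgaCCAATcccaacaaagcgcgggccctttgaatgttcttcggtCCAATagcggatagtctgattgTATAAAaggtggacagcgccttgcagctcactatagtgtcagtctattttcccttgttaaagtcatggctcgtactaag
The H2ac11 stretch held CCAAT 5 times over both strands and no TATAAA, and H3c2 held CCAAT 2 times and TATAAA once. Promoters of 50 of the 57 genes were found, 51 in all, and were searched on both strands, as were all 32851 promoters of the RefSeq table. CCAAT stood in 43 of the 51 (84.3%), against 37.4% of all promoters. All promoters of H1, H2A, H2B and H3 genes held it, and 3 of 11 of H4. TATAAA stood in 29 (56.9%, against 13.6%) and ATTTGCAT, the octamer, in 10 (19.6%, against 1.74%), 4 of H2A and 6 of H2B. The motifs share no overlap in the printed stretches, and a match describes letters only.

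The annotated end of the transcript differed among the genes. These ends are those of the longest GENCODE M21 transcript of each gene, a choice that favours models running past the stem-loop. Shorter transcripts of these genes were not searched. The counts were made over RefSeq exons, which can stop earlier: H1f2 had 725 exonic bases in the table and a GENCODE transcript of 1560. In 17 genes the GENCODE transcript ran over 100 bases past the stem-loop, and these summed to 119.7 ± 3.10 CPM in K68R against 59.2 ± 1.97 CPM in WT (SD, n = 3), a ratio of 2.02. Of 16 tested, 12 were called higher and none lower, against 40.8% and 40.5% of all genes tested. The filter was passed through K68R libraries alone by 2 of the 16, and its level was reached in fewer than 3 WT libraries by 6. In 19 genes it ended within 100 bases of the stem-loop, and these summed to 23.8 ± 0.414 CPM in K68R against 26.4 ± 3.85 CPM in WT (SD, n = 3), where WT replicates 1 and 3 lay above all K68R libraries and WT replicate 2 below. Of 14 tested, 10 were called higher and 2 lower, H2ac11 and H2ac23, and H2ac24 is in this group. Of these 14 genes 5 passed the filter through K68R libraries alone, and 10 reached its level in fewer than 3 WT libraries. A polyadenylation signal lay in the last 50 bases of 6 of the 17 and 1 of the 19. The 21 genes with no match or no transcript summed to 75.0 ± 1.23 CPM in K68R against 44.6 ± 1.26 CPM in WT (SD, n = 3), with 4 of 13 tested higher and 2 lower. H2bc4 held most of that sum, and the other 20 genes summed to 12.5 ± 0.744 CPM in K68R against 10.4 ± 2.08 CPM in WT (SD, n = 3), values that overlapped. Without H1f2, the first group summed to 43.8 ± 2.12 CPM in K68R against 19.6 ± 1.52 CPM in WT (SD, n = 3).

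Genes for replacement histones, which are not restricted to S phase and are made mostly from polyadenylated messages, mostly went the other way. Beside the counts of this and the next lists stand 40.8% of all genes called higher and 40.5% lower. Of 10 tested, 3 were called higher and 7 lower (2 and 8 with the offsets), with a median log2 fold change of −0.74 (−0.53 with the offsets). H3f3b, one of the genes of histone H3.3, was at 396 ± 2.57 CPM in K68R against 717 ± 5.99 CPM in WT (SD, n = 3), a log2 fold change of −0.86 ± 0.02. H3f3a, the other, fell by 1.07 and H2az1, for H2A.Z, by 1.37. Cenpa, for the centromeric H3, fell by 1.43, H2az2 by 0.99, H1f0 by 0.62 and Macroh2a2 by 0.50. H1f10 was higher by 1.13 (0.39 with the offsets), H2aj by 0.14 and Macroh2a1 by 0.17. Macroh2a1 turned to −0.72 with the offsets, and H2aj was not called under upper quartile normalization (0.02). H2ax was listed at 0 in all libraries, and all its exonic bases were shared with Dpagt1 in the table.

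Among 22 genes of histone mRNA processing and histone cluster transcription, 7 were called higher, 13 lower and 2 not, with a median of −0.33. With the offsets 4 were higher and 12 lower, and the median was −0.23. Slbp, the stem-loop binding protein, was at 41.5 ± 2.04 CPM in K68R against 87.5 ± 0.566 CPM in WT (SD, n = 3), with a log2 fold change of −1.07 ± 0.04 (edgeR, Benjamini-Hochberg adjusted p = 9.3e-39). It was −0.57 with the offsets. Eri1, an exonuclease that trims the histone end, was at 33.9 ± 0.529 CPM in K68R against 70.6 ± 1.07 CPM in WT (SD, n = 3). Npat, the co-activator of histone transcription, was at 44.4 ± 0.960 CPM in K68R against 62.7 ± 1.04 CPM in WT (SD, n = 3). Casp8ap2, or FLASH, was at 28.1 ± 1.06 CPM in K68R against 50.4 ± 1.62 CPM in WT (SD, n = 3), and these 3 genes were called lower, with log2 fold changes of −1.06, −0.50 and −0.84. Lsm10 and Lsm11 are proteins of the U7 ring: Lsm10 was lower by 0.48 (−0.04 and not called with the offsets) and Lsm11 higher by 0.43 (−0.16 with the offsets). Zfp473, a further factor of this cut, was at 0.990 ± 0.248 CPM in K68R against 0.795 ± 0.227 CPM in WT (SD, n = 3) and not called at 0.33. Sympk, the scaffold of the cleavage complex, was at 201 ± 2.27 CPM in K68R against 15.1 ± 0.599 CPM in WT (SD, n = 3), a log2 fold change of 3.73 that was 2.15 with the offsets. Upf1, a helicase in the decay of histone mRNA, was higher by 2.99 (1.04 with the offsets).

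Of 20 histone chaperone genes 5 were called higher and 13 lower (2 and 16 with the offsets), with a median of −0.61. Nasp, which carries H3 and H4, was at 54.8 ± 1.46 CPM in K68R against 147 ± 2.35 CPM in WT (SD, n = 3) and fell by 1.43 on the log2 scale. Npm1 fell by 1.01, and Cabin1, a part of the HIRA complex, rose by 3.58 (1.10 with the offsets). Of 43 S-phase and replication genes 41 were called lower and 2, Pold1 and Dnmt1, higher, with a median of −1.21; with the offsets 42 were lower and none higher. Rrm1, of ribonucleotide reductase, was at 194 ± 4.54 CPM in K68R against 475 ± 3.36 CPM in WT (SD, n = 3). Mcm6, of the replicative helicase, was at 78.0 ± 3.90 CPM in K68R against 237 ± 3.31 CPM in WT (SD, n = 3). Ccna2, cyclin A2, was at 56.2 ± 1.71 CPM in K68R against 174 ± 1.80 CPM in WT (SD, n = 3). Their log2 fold changes were −1.29, −1.60 and −1.63.

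**Figure D5:**
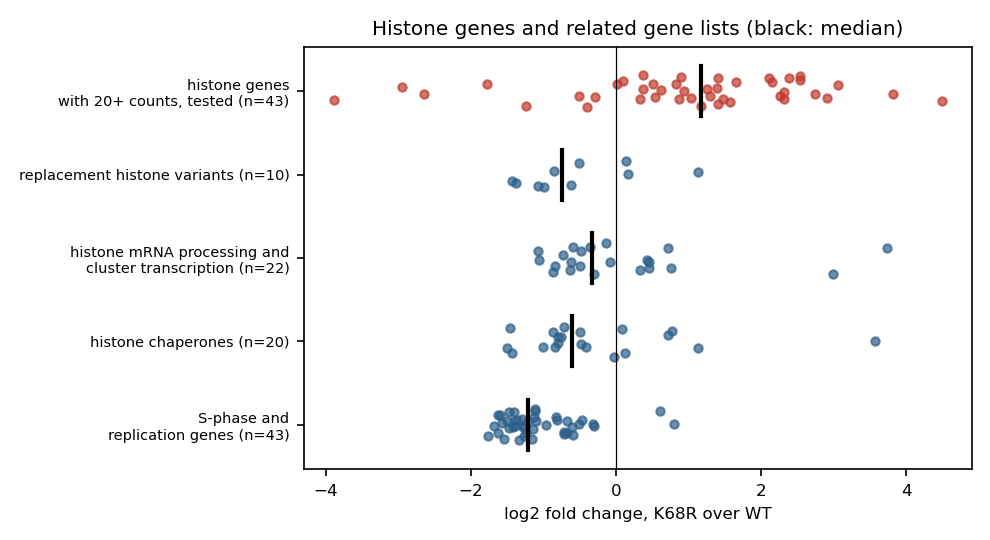
Log2 fold change of K68R over WT for the 43 tested replication-dependent histone genes and for 4 lists of related genes (vertical position within a row has no meaning), with the median of each as a black line. The histone genes have a median of 1.18, and the medians of the other lists lie between −1.21 for S-phase genes and −0.33 for processing genes.

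A list of 15 RNAs that lack a poly(A) tail in some or all of their forms was read beside them. Tailed and untailed forms of a gene were not told apart. Of its 7 tested members 1 was called, Malat1, a nuclear RNA whose end is a triple helix, at 1447 ± 74.0 CPM in K68R against 716 ± 19.9 CPM in WT (SD, n = 3), a log2 fold change of 1.02 (1.10 with the offsets). Neat1, the other abundant member, was at 295 ± 9.23 CPM in K68R against 293 ± 5.42 CPM in WT (SD, n = 3), not called at 0.01, and called lower with the offsets at −0.80 (edgeR, Benjamini-Hochberg adjusted p = 1.6e-34). The median of the 7 was −0.32. The part of RNA without a tail, and of the S-phase genes above, in the histone values was not tested.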

How the data were processed

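The 6 libraries of embryonic fibroblasts, 3 K68R and 3 WT, were grouped by the genotype in their titles. Per the labels' protocols, RNA with an integrity number above 4 went into a stranded poly(A) kit. Alignment was to build mm39, and the tools named are HISAT2 2.2.1, bcl2fastq, featureCounts 2.0.6 and SAMtools, per the submitters' processing notes. The authors deposited whole-number counts of read pairs over the RefSeq exons of each gene, made, per the file headers, without a strand option and without multi-mapped reads. The sources used here do not give any trimming of reads.

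Counts were analysed with edgeR 4.0.16 in R 4.3.3 (filterByExpr defaults, TMM, robust quasi-likelihood F test, all 6 libraries, no covariate), with Benjamini-Hochberg adjustment over all genes tested and calls at an adjusted p under 0.05. CPM used TMM-normalized library sizes. The script was tested on simulated data. Library totals set a floor of 3 counts at 0.0728 to 0.116 CPM, which speaks of counting error alone, and the counts carry no molecular identifiers. Alternatives were upper quartile normalization, DESeq2 1.42.0 and its size factors, 1 CPM in 3 libraries or no filter, limma-voom (limma 3.58.1), a replicate block, a 1.5-fold bound, an adjusted p under 0.01, leaving out each library, members with 100 or more counts or under 1000 exonic bases, and offsets smoothed over exon length and GC content (mgcv 1.9.3). GC content came from the longest GENCODE M21 transcript of a gene, for 15572 genes tested (93.1%). Near-identity was the share of 50-base words of the longest transcript of a gene found in no other GENCODE gene.

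The genes named were, in each class, the 3 with the highest CPM per kilobase, those with the highest and lowest fold change and all called lower. To these came the 3 nearest the count threshold on each side, 3 per related list by p, fixed processing genes, all tested replacement histones and Sod2. Others named (H1f1, H2ac6, H2ac8, H2ac18, H2ac19, H2bc11, H2bc18, H2bc23, H2bc27, H3c14, H4c16, H3c4, Pold1, Dnmt1, Neat1, Fn1, Col1a1, Pdgfra) were chosen after their values were seen. The members and lists were chosen with earlier results of these data known. Promoters and transcripts belong to GRCm38 and were joined by gene ID or symbol, never by coordinate.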

Additional observations from a re-analysis of the deposited data

How the results depend on the processing

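The count of genes called fell from 13613 to 6855, and of those higher from 6833 to 4365, against a 1.5-fold bound, and lay between 13403 and 13637 (6760 and 6849 higher) without single libraries. Histone genes called higher went from 26 to 16 and lower from 4 to 2 under a filter of 1 CPM, which tests fewer genes. That filter also lowered H2A from 4 to 2 called higher, H2B from 7 to 3, H4 from 6 to 2 and chromosome 3 from 4 to 2. These are counts over fewer tested genes and do not show a fall in the share called higher. Among H4 genes only H4c8 and H4c9 reached 1 CPM in 3 libraries, and among H2B genes only H2bc4, H2bc6, H2bc8 and H2bc21. All of these but H2bc21 were called higher in the main fit. Without single libraries 26 to 30 were higher and 3 to 5 lower. The median log2 fold change of 1.18 was 1.06 under upper quartile normalization, 0.87 without a filter, 1.76 with length and GC offsets, 0.92 in DESeq2 and 0.95 to 1.32 without single libraries. H1 genes called higher went from 3 to 5 with the offsets and in limma-voom, and were 3 to 5 without single libraries. The cause of these shifts was not tested. The log2 ratio of summed CPM under upper quartile normalization, which moved the median of all genes to −0.12, was 0.63 for all genes of the family (0.75 as reported), 0.83 for H1 (0.95), 0.80 for H2B (0.91) and 0.79 for H4 (0.91). For H2B genes under 1000 exonic bases it was 0.97. Reversed by the offsets were H2bc21 (0.058), Macroh2a1 (−0.72) and Lsm11 (−0.16). Same-numbered libraries did not deviate together (correlations of −0.0095, 0.0135 and 0.0130), and with the replicate block 13567 genes, 27 histone genes higher and 5 lower were called, H2ac24 among the latter (adjusted p = 1.8e-11). Of the 57 histone genes 14 had too few counts for the main test, and a change in them was mostly not detectable at this depth.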
